A study of Mus musculus with 6 samples.

Results

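The comparison described here was between 2 cultures that began as DN1 progenitors, 1 from WT mice and 1 from mice that lacked the timing enhancer of Bcl11b (labelled Del_TE, written dTE below). It was made across all genes of the table, with 1 single-cell RNA library per genotype. Cells were kept when they had at least 200 genes, at most 2000 UMIs (unique molecular identifiers, each counting 1 captured RNA molecule) and at most 30% of UMIs on mitochondrially encoded genes. This left 10925 WT DN1 and 10294 dTE DN1 cells, together 21219 of the 60671 cells kept in all 6 libraries of the series, and 10155 of the 28048 listed genes had the 50 UMIs over both libraries that a comparison required.

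Bcl11b encodes a zinc finger transcription factor that early thymic progenitors switch on as they commit to the T-cell lineage, and that is kept on through later T-cell stages. Progenitors pass through stages named DN1, DN2a and DN2b, and Bcl11b is silent in the first of these. Each copy of the gene is switched on separately, after a delay whose length is set in part by a distant enhancer, the timing enhancer. Before Bcl11b is on, progenitors can still give rise to innate lymphoid cells (ILCs), natural killer (NK) cells and myeloid cells, and PLZF, the product of Zbtb16, is a factor of the ILC path.

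Mice of both genotypes were C57BL/6 and carried a yellow fluorescent protein reporter in Bcl11b on both chromosomes, so the WT culture was itself from reporter mice. In dTE mice the timing enhancer was also deleted from both chromosomes. Male and female adults were combined. c-Kit-enriched marrow was pooled over several mice of a genotype and grown with Notch-ligand-bearing OP9-DL1 stroma, and DN1 cells (CD44+CD25-) were sorted from it. The sorted cells were returned to OP9-DL1 stroma for 4 days with IL-7, Flt3 ligand, IL-2, IL-15 and stem cell factor, fixed, and profiled by sci-RNA-seq3, a method that labels cells by combinatorial indexing. The labels give the molecule as nuclear RNA. Other libraries of the series started from DN2a cells (CD44+CD25+Bcl11b-) and DN2b cells (CD44+CD25+Bcl11b+) and were handled alike. Those starts were thus sorted on Bcl11b itself.

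With 1 library per genotype there was no replicate check, and no test or p-value is given. Levels are CPM, summed UMIs scaled to a common library total, with exact Poisson 95% intervals, and differences are log2 ratios of CPM, dTE to WT, with exact 95% intervals. Both kinds of interval cover counting error only. Each library had been spread over 3 reverse-transcription wells, named in the barcodes, and levels are also given per well. Wells are parts of 1 library, not separate mice, so agreement between them says nothing about variation between animals or cultures. A gene is called higher or lower when its ratio passed 1.5-fold, and its wells are said to lie apart when all 3 of one library were above all 3 of the other. In summed counts, fewer cells of a type and less RNA per cell cannot be told apart.

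The 2 libraries were close in depth. They held 5990134 scaled UMIs in WT DN1 and 5894373 in dTE DN1, with medians of 462 and 485 UMIs and 329 and 344 genes per cell. The mitochondrial limit removed 35.3% of the WT and 30.6% of the dTE barcodes that passed the gene minimum, and 3 UMIs corresponded to 0.501 and 0.509 CPM. No barcode was shared between libraries. One WT well stood apart. WT well 3 held 4660 cells against 2987 and 3278, its median mitochondrial share was 20.6% against 24.3% and 23.4%, and its summed level of 14 OP9-DL1 stromal genes was 936 CPM, against 300.3 to 387 CPM in the other 5 wells. Where leaving this well out moved a named gene past 1.5-fold or back, or by over 1.5-fold, the value without it is given, or the range when 1 well was left out.

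Across genes both libraries were centred on each other, with a median log2 ratio of -0.0016 over the 10155 genes compared. Of these, 179 genes (1.76%) were at least 1.5-fold higher in dTE DN1 and 273 (2.69%) at least 1.5-fold lower. When the wells were also required to lie apart, 124 genes (1.22%) were higher and 132 (1.3%) lower, of which 23 and 41 passed 2-fold. Wells lay apart for 882 genes upward (8.69%) and 844 downward (8.31%) at any size of ratio. Most calls were of sparsely counted genes: 82 of the 124 higher and 100 of the 132 lower genes had under 200 UMIs. Among the 7655 genes with at least 200 UMIs, 50 were higher and 50 lower, 42 and 32 of them with wells apart. Near the 1.5-fold limit, Cd28 (a costimulatory receptor) was just inside at 21 UMIs in WT and 31 in dTE, and Zswim1 just outside at 40 and 59. On the other side Tmem176b was just inside at 479 and 314, and Mthfsl just outside at 32 and 21. Without WT well 3, 260 genes were higher and 158 lower. Of the 179 higher genes 149 could then still be compared and 113 kept their call, and of the 273 lower genes 183 and 102. With no mitochondrial limit on cells all of these genes could be compared, and 101 of the 179 and 95 of the 273 kept their call.

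**Figure D1:**
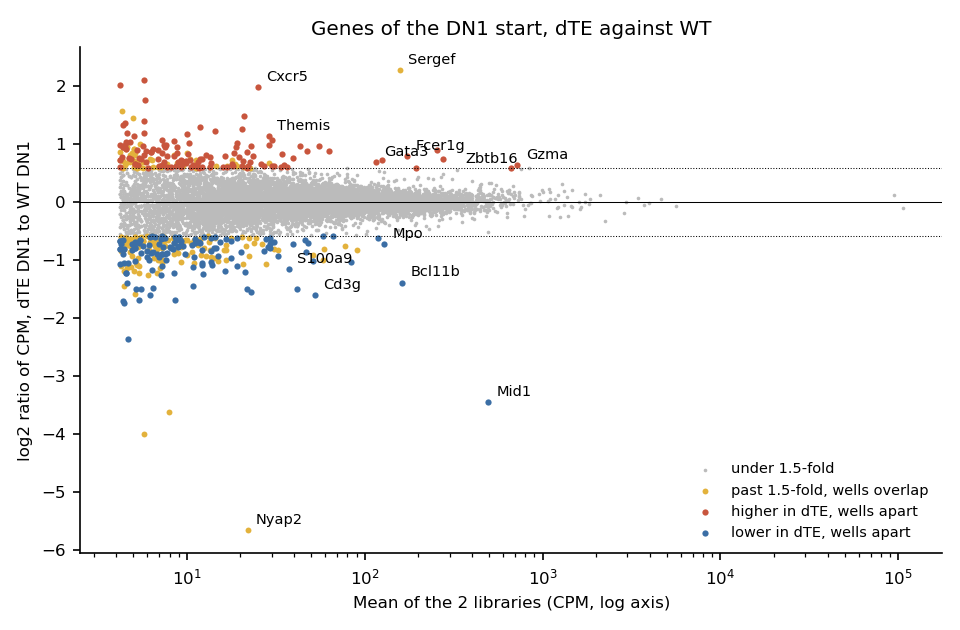
Each point is 1 of the 10155 genes with at least 50 UMIs, placed by the mean level of the 2 libraries (CPM, log axis) and its log2 ratio of CPM, dTE DN1 to WT DN1, with dotted lines at 1.5-fold. The scatter narrows as the level rises, so that Bcl11b, Mid1 and Gzma stand clear of genes of like level, while Nyap2 (-5.67) and Sergef (2.27) have ratios past 1.5-fold and wells that overlap.

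Bcl11b itself was lower in dTE DN1. Its gene lies on the minus strand of chromosome 12 (GRCm38, 107910403 to 108003602). The 3 WT wells had 258, 230 and 222 CPM and the 3 dTE wells 100, 84.9 and 80.7 CPM. The lowest WT well was thus above the highest dTE well. Summed, 1407 UMIs in WT DN1 (235 CPM, interval 223 to 247) faced 527 in dTE DN1 (89.4 CPM, 81.9 to 97.4), a log2 ratio of -1.39 (-1.54 to -1.25), or 2.63-fold. The ratio stayed between -1.50 and -1.33 under 17 other ways of choosing cells, wells and scaling. Transcripts of the enhancer region itself were not analysed here.

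Fewer dTE cells carried a Bcl11b UMI. To compare cells at 1 depth, each was thinned to 300 UMIs, which left out 1266 WT and 1010 dTE cells. A Bcl11b UMI was then found in 6.07% of WT cells (exact interval 5.60 to 6.56) and in 2.14% of dTE cells (1.86 to 2.46). Before thinning the shares were 10.0% and 4.11%. Free RNA can also place a UMI in a cell that does not express the gene. Cells with at least 2 stromal UMIs served as a background for this. Their thinned share was 3.79% (1.91 to 6.69, 290 cells) in WT and 1.93% (0.529 to 4.87, 207 cells) in dTE. Their median depths before thinning were 651.5 and 560 UMIs, against 497 and 517 UMIs in all thinned cells. Whether these cells lack Bcl11b was not tested. After thinning, 11.7% and 11.1% of them had at least 2 UMIs on the stem and progenitor genes listed below, so this background may hold more than free RNA. At 300 UMIs the share over all cells lay within the interval of this background in both libraries. Thinned to 250 UMIs, the WT share of 5.20% was above its background of 2.27% (0.919 to 4.63). Before thinning, the WT share was also above its background of 5.50% (3.24 to 8.66). In both cases the dTE share stayed within the interval of its background.

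Genes near Bcl11b did not reach the 1.5-fold limit. Within 3 Mb of its start, 21 other genes could be compared and 0 were called in either direction. Over all genes compared, 1.76% were called higher and 2.69% lower, so 0 of 21 is close to that share. The median log2 ratio of these neighbours was 0.05, with a range from -0.49 (Degs2, a sphingolipid desaturase) to 0.42 (Zfp839). Setd3, an actin methyltransferase and one of the closest genes, had 459 and 408 UMIs and a ratio of -0.15 (-0.34 to 0.05). Vrk1, a nuclear kinase on the other side of Bcl11b, had a ratio of -0.18 (-0.35 to -0.01). Evl, an actin regulator, had the lowest ratio among neighbours with over 100 UMIs, at -0.48 (-0.72 to -0.25), with wells apart.

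**Figure D2:**
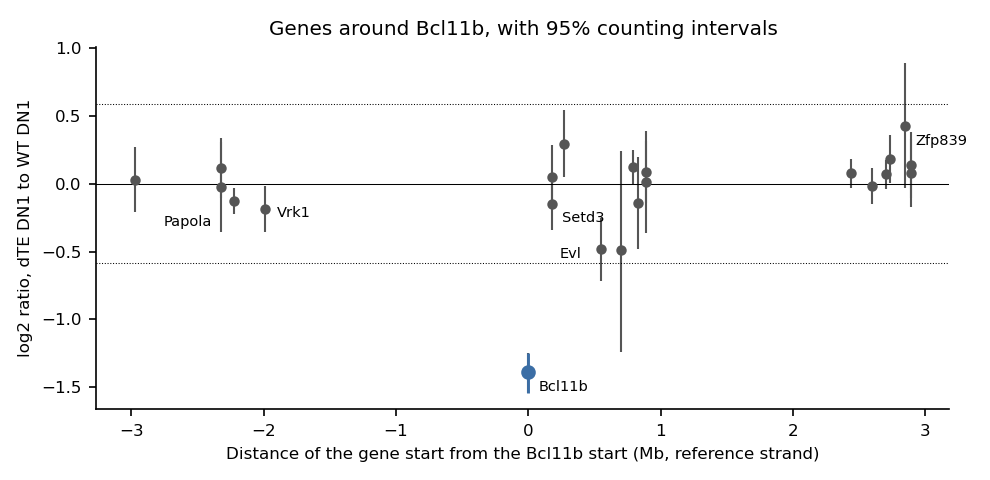
Log2 ratio of CPM, dTE DN1 to WT DN1, of Bcl11b and the 21 genes within 3 Mb that had at least 50 UMIs, by distance of the gene start from that of Bcl11b (Mb, GRCm38), with exact 95% counting intervals and dotted lines at 1.5-fold. Bcl11b at -1.39 is the 1 gene past the limit, and its neighbours run from -0.49 to 0.42.

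Of the 18 listed T-lineage transcription factors, all were measured, and 3 were called: Bcl11b lower, and Gata3 and Lef1 higher. Among all genes 2.69% were called lower and 1.76% higher. The list median was near 0, at -0.0012, as was that of all genes. Gata3, a zinc finger factor needed at the earliest T-cell stages and in ILC2 cells, had 86.5, 87.1 and 90.0 CPM in the WT wells and 146, 143 and 136 CPM in the dTE wells. Every dTE well was above every WT well, and the ratio was 0.69 (0.53 to 0.85). The ratio was under the limit at 0.46 when cells were held to at most 20% mitochondrial UMIs. Lef1, a high mobility group factor that acts with TCF-1, went from 41 to 81 UMIs, with wells of 6.43, 8.32 and 6.05 CPM against 16.6, 12.6 and 11.4 CPM and a ratio of 1.01 (0.45 to 1.58).

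Runx factors, which act with Cbfb at many T-cell genes, were split. Runx1 was measured at 1427, 1372 and 1328 CPM in the WT wells and 1103, 1200 and 1122 CPM in the dTE wells. The wells lay apart, while the ratio of -0.26 (-0.31 to -0.22) was short of 1.5-fold. Thinned to 300 UMIs, 31.4% of WT and 26.7% of dTE cells had a Runx1 UMI, against 16.9% and 17.9% of the cells with stromal UMIs. Runx2 had a ratio of -0.40 (-0.53 to -0.28), and Runx3, linked to cytotoxic and ILC programs, had one of 0.33 (0.25 to 0.40), both with wells apart. Other factors of the list, named after their values were seen, were Bach2, a repressor of effector programs, at -0.57 (-0.75 to -0.39), Tcf7, which encodes TCF-1 and is an early target of Notch, at 0.14 (0.05 to 0.23), and Ets1 at -0.05. Ikzf1, which encodes Ikaros, was at -0.03 (-0.10 to 0.04).

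Genes of the T-cell receptor and its signalling moved apart from each other. Of 23 listed, 21 were in the table and 16 could be compared: Cd3g and Cd3d were lower, 3 genes were higher, Themis and Cd28 among them, and 11 lay within 1.5-fold, for a list median of 0.0031. By the same rule 2.69% of all genes were lower and 1.76% higher. Cd3g, which encodes an invariant chain of the CD3 complex, had 79.5, 82.7 and 75.5 CPM in the WT wells and 26.1, 19.4 and 32.4 CPM in the dTE wells. No dTE well came within 40 CPM of a WT well. From 472 to 152 UMIs, its ratio was -1.61 (-1.89 to -1.34). Cd3d, its neighbour on chromosome 9, went from 36 to 17 UMIs, a ratio of -1.06 (-1.98 to -0.19), and was at -0.16 in cells with at most 20% mitochondrial UMIs. Cd3e, the third gene of that cluster, was just short of the minimum with 36 and 12 UMIs. Ptcra, the pre-T-cell receptor chain, was almost absent, with 6 and 2 UMIs.

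In the opposite direction, Themis, a thymocyte signalling adaptor, was measured at 24.6, 12.2 and 17.8 CPM in the WT wells and at 44.5, 36.2 and 37.5 CPM in the dTE wells. Each dTE value was above each WT value, and the ratio was 1.14 (0.80 to 1.48). Lck, the kinase bound to CD4 and CD8, did not differ beyond counting error at 740 and 731 UMIs, a ratio of 0.01 (-0.14 to 0.16). Cd5, an inhibitory receptor, was at -0.43 (-0.79 to -0.08), Cd27 at -0.27 (-0.41 to -0.12) and Thy1, a surface marker of the T lineage, at 0.23 (0.11 to 0.35).

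Zbtb16 stood higher in dTE DN1, as did some ILC and NK effector genes, while the median ratio of the ILC and NK factors was near 0. Zbtb16 had 275, 259 and 266 CPM in the WT wells and 387, 407 and 381 CPM in the dTE wells. The gap between the nearest wells was larger than the spread within either library, and the ratio from 1595 and 2308 UMIs was 0.56 (0.46 to 0.65), just under the 1.5-fold limit. With no mitochondrial limit on cells the ratio was 0.67, past the limit. After thinning, 6.85% of WT cells (6.36 to 7.38) and 9.95% of dTE cells (9.35 to 10.6) had a Zbtb16 UMI, against 2.76% and 2.90% of cells with stromal UMIs, so that both shares were above this background.

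Of 16 ILC and NK transcription factors, Zbtb16 included, 9 could be compared, and their median ratio was -0.02. None of the 9 was called, which is near the share over all genes (1.76% higher and 2.69% lower). Summed over the list, the level was 1220 CPM in WT DN1 and 1391 CPM in dTE DN1, a ratio of 0.19 (0.145 to 0.236). Most of this difference was in Zbtb16, with 1595 and 2308 UMIs in list totals of 7305 and 8202. Of the 9 members compared, 4 had ratios above 0 and 5 below. The wells of this sum lay apart, at 1216, 1225 and 1218 CPM against 1351, 1433 and 1398 CPM. Id2, a repressor of E proteins that all ILCs need, had 32.1, 26.1 and 31.9 CPM in WT and 42.7, 39.8 and 47.2 CPM in dTE wells. These wells lay apart, with a ratio of 0.51 (0.23 to 0.80). Rora, a nuclear receptor of the ILC2 path, was at -0.23 (-0.55 to 0.09) with overlapping wells, and 7.93% of WT and 9.66% of dTE cells with stromal UMIs carried a Rora UMI, against 0.745% and 0.808% of all cells. Tox, a factor shared by the T, ILC and NK paths, was at 0.09 (0.03 to 0.15), and Eomes had 0 UMIs in both libraries. Under the minimum, and named after their values were seen, were Tox2 and Prdm1. Tox2 had 14 and 35 UMIs, a ratio of 1.35 (0.41 to 2.35) with wells apart. Prdm1 had 10 and 4 UMIs, a ratio of -1.3 (-3.43 to 0.495) with overlapping wells.

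Among 29 ILC and NK receptor and effector genes, 15 could be compared, of which 4 were higher and 0 lower, and the list median was 0.16. Shares over all genes were 1.76% higher and 2.69% lower, so 0 lower of 15 is near its share. Gzma, a granzyme, had 518, 564 and 600 CPM in the WT wells and 906, 845 and 876 CPM in the dTE wells. Each dTE well exceeded the highest WT well by over 200 CPM, and the ratio was 0.63 (0.57 to 0.69). It was 0.53 in cells with at most 20% mitochondrial UMIs, under the limit. Fcer1g, which encodes the signalling chain of Fc and NK receptors, had 117, 118 and 142 CPM against 212, 218 and 232 CPM. Its wells lay apart, with a ratio of 0.78 (0.66 to 0.92). Tyrobp, the related adaptor DAP12 and named after its value was seen, was at 0.40 (0.27 to 0.53).

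The sparse members of that list were near the floor of detection. Il2rb, the receptor chain shared by IL-2 and IL-15, had 0 UMIs in WT DN1 and 12 in dTE DN1, at least 4.06-fold higher against a floor of 3 UMIs per library. The exact counting interval of its log2 ratio, which also covers the error of the 12 UMIs, began lower, at 1.5. Ccl5, a chemokine of effector lymphocytes, had 17 and 38 UMIs, a ratio of 1.18 (0.32 to 2.10). Icos had 12 and 17, under the minimum, a ratio of 0.53 (-0.63 to 1.72), or 1.02 without WT well 3. Klrb1c, Klrb1b, Klrc1 and Areg had 0 UMIs in both libraries. Klrd1, the NK receptor chain CD94, was called higher from 21 and 33 UMIs, with overlapping wells.

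Other abundant members differed little or were lower. Gzmb, the second granzyme, was at 0.16 (0.05 to 0.27), and Nkg7, a cytotoxic granule protein, was at -0.32 (-0.42 to -0.22) with 287, 283 and 302 CPM against 244, 228 and 230 CPM. Summed over the list, the level was 1954 CPM in WT DN1 and 2413 CPM in dTE DN1, a ratio of 0.30 (0.27 to 0.34). Gzma went from 3390 to 5171 UMIs and Fcer1g from 765 to 1297, within list totals of 11707 and 14225. Most of the difference in the sum was thus in these 2 genes. Of the 15 members compared, 12 had ratios above 0 and 3 below. At 300 UMIs per cell, 12.7% of WT (12.0 to 13.3) and 17.1% of dTE cells (16.4 to 17.9) had at least 2 UMIs on the list, and 3.79% and 6.28% of cells with stromal UMIs did.

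**Figure D3:**
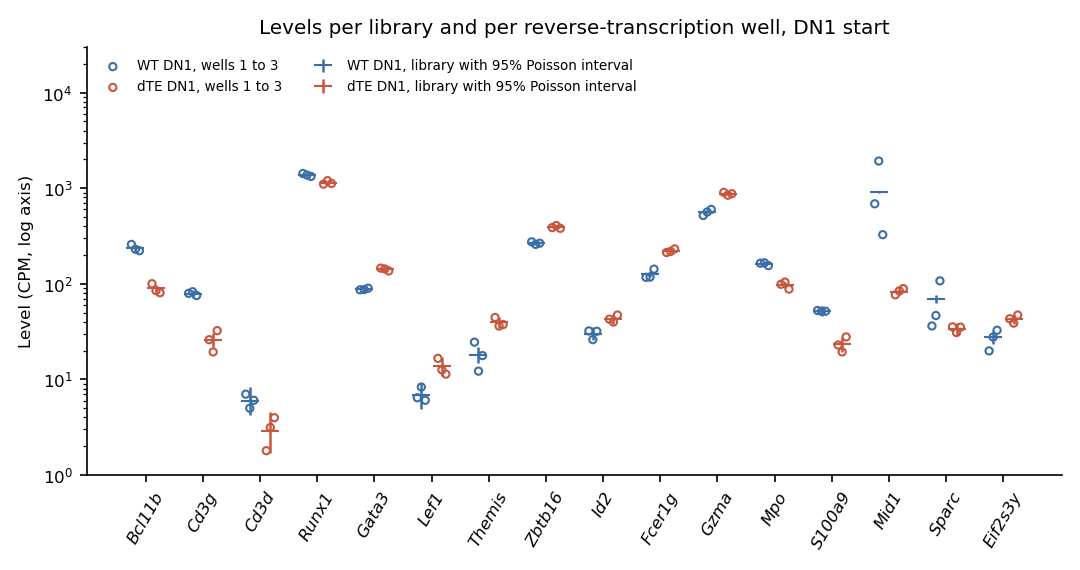
Levels (CPM, log axis) of 16 genes in the 2 DN1 libraries, with circles for the 3 reverse-transcription wells and a cross for the whole library with its exact Poisson 95% interval. WT wells (blue) lie above dTE wells (red) for Bcl11b, Cd3g, Runx1, Mpo, S100a9 and Mid1 and below them for Gata3, Themis, Zbtb16, Fcer1g and Gzma, and WT well 3 sets the WT level of Sparc.

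Genes of the starting population were still expressed in both libraries, as was Il2ra, which encodes CD25, the marker that the sorted DN1 cells lacked. Il2ra had 1588, 1667 and 1688 CPM in WT wells and 1796, 1840 and 1848 CPM in dTE wells, a ratio of 0.14 (0.10 to 0.18), while Kit, the receptor for stem cell factor, had 1424 and 1384 UMIs and a ratio of -0.02 (-0.13 to 0.09). After 4 days DN1 therefore names the start of the culture, not the state of the cells. Of 22 stem and progenitor genes, 20 could be compared, 1 was lower and 0 higher, and the median ratio was -0.13, with 16 below 0. Both counts are near the shares over all genes, 2.69% lower and 1.76% higher. The called member was Hoxa7, a homeobox factor of progenitors, with 47 and 24 UMIs and a ratio of -0.95 (-1.72 to -0.21). Without dTE well 2 it was at -0.57, and in cells with at least 300 genes at -0.51, both under the limit.

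Among abundant progenitor genes, Etv6, an ETS family repressor, was at -0.25 (-0.30 to -0.21), Cd48 at -0.29 (-0.37 to -0.21), Mef2c, a factor of progenitor and myeloid programs, at -0.25 (-0.42 to -0.09) and Cd44 at -0.22 (-0.34 to -0.09), each with wells apart. Meis1, a homeobox cofactor, was at -0.51 (-0.67 to -0.34), and Mycn, a Myc family factor, went the other way at 0.51 (0.26 to 0.75). Bcl11a, the paralogue of Bcl11b that acts in progenitors, was at -0.08 (-0.18 to 0.02). After thinning, 30.5% of WT and 26.9% of dTE cells had at least 2 UMIs on the list, against 11.7% and 11.1% of cells with stromal UMIs.

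More myeloid genes were lower than higher in dTE DN1. Of 21 neutrophil, monocyte and macrophage genes, 18 could be compared, 7 were lower, 2 were higher, and the median was -0.21. By the same rule 2.69% of all genes were lower and 1.76% higher. Mpo, the myeloperoxidase of granulocyte progenitors, had 164, 166 and 155 CPM in the WT wells and 98.8, 104 and 88.1 CPM in the dTE wells. The wells lay far apart, and the ratio was -0.72 (-0.88 to -0.57). S100a9, a subunit of calprotectin of neutrophils, had 52.6, 51.6 and 51.7 CPM against 22.9, 19.4 and 27.8 CPM and a ratio of -1.16 (-1.46 to -0.87). Its partner S100a8 was at -1.50 (-1.93 to -1.09), and Elane, neutrophil elastase, at -1.61 (-2.47 to -0.83) from 56 and 18 UMIs.

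Lyz2, lysozyme of macrophages, was at -0.66 (-0.92 to -0.41), and Itgam, which encodes CD11b, at -0.63 (-1.31 to 0.02) with an interval that holds 0. Itgam was under the limit without WT well 3 (-0.56), dTE well 1 (-0.47) or dTE well 3 (-0.58), and at -0.39 both in cells with at most 20% mitochondrial UMIs and with no such limit. Ltf, lactoferrin, was called lower from 35 and 22 UMIs, with overlapping wells. On the other side, Irf8, a factor of monocytes and dendritic cells, was at 0.59 (0.22 to 0.96), and Fcgr3, an Fc receptor, at 0.72 (0.14 to 1.31) from 42 and 68 UMIs. Irf8 was under the limit without WT well 2 (0.43) or dTE well 2 (0.44), and Fcgr3 without WT well 1 (0.58) or dTE well 3 (0.53). Csf1r, the receptor of macrophage colony-stimulating factor, was at 0.30 (-0.02 to 0.63). Summed, the list had 571 CPM in WT and 439 CPM in dTE DN1, a ratio of -0.38 (-0.45 to -0.30), and 2.73% of WT (2.42 to 3.08) and 1.93% of dTE cells (1.66 to 2.23) had at least 2 of its UMIs after thinning. Among cells with stromal UMIs those shares were 3.45% (1.67 to 6.25) and 0.966% (0.117 to 3.45), and the share over all cells lay within the interval of this background in both libraries. Granule genes were not all lower: Ctsg, cathepsin G, was at -0.18 and Ngp, neutrophilic granule protein, at -0.12. Leaving out all cells with at least 2 myeloid UMIs before thinning, an alternative added after the data were seen, took Mpo to -0.47 and S100a8 to -0.76, but S100a9 to -1.83, and the counts over all genes to 173 higher and 252 lower. With the stromal cells left out too, S100a8 was at -0.50, under the limit.

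MHC class II and dendritic cell genes had 9 of 11 members compared, of which H2-Aa and H2-Eb1 were higher, both with overlapping wells. Among all genes 1.76% were called higher. H2-Aa, a class II chain, had wells of 31.6, 19.98 and 17.8 CPM in WT and 27.4, 46.1 and 34.1 CPM in dTE, a ratio of 0.66 (0.34 to 0.99). It was at 0.47 without WT well 3, at 0.44 without dTE well 2 and at 0.37 without cells with myeloid UMIs. Of 13 mast cell, basophil and megakaryocyte genes only 3 were counted often enough, and none was called. Itga2b, the integrin chain CD41, was at 0.53 (0.38 to 0.69), and at 0.60 without WT well 3, and Cpa3, a carboxypeptidase of mast cells that early progenitors also express, at 0.30 (0.22 to 0.38), both with wells apart. Mcpt4, a mast cell protease under the minimum and named after its value was seen, had 3 and 26 UMIs, a ratio of 3.14 (1.43 to 5.51), and Fcer1a was at 0 in both.

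B-cell genes were nearly absent. Of 10 listed, 2 could be compared, Ebf1 and Cd79b, and neither was called. Pax5 had 1 and 0 UMIs, and Ms4a1 had 0 in both libraries. Ebf1, a B-cell factor that stromal cells express as well, had 14.6, 16.1 and 66.2 CPM in the WT wells and 24.7, 22.5 and 29.5 CPM in the dTE wells. WT well 3 was again the highest. The Ebf1 ratio was -0.52 (-0.83 to -0.21) over all wells, 0.73 without WT well 3, and -0.83 without WT well 1 or WT well 2, so that 1 well set its direction.

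Stromal genes formed the group with the lowest median, and 1 well set it. Of 14 genes of the OP9-DL1 layer, 12 could be compared, and 9 were lower and 0 higher (2.69% and 1.76% over all genes). The median was -0.82. Col1a2, a chain of type I collagen, had 64.3, 76.0 and 179 CPM in the WT wells and 74.1, 48.7 and 69.9 CPM in the dTE wells. WT well 3 was outside the range of the other wells by a wide margin, and the ratio went from -0.84 to -0.12 without it. Summed, the list had 326, 387 and 936 CPM in the WT wells and 345, 300.3 and 383 CPM in the dTE wells, with a ratio of -0.80 (-0.88 to -0.72) over all wells and -0.06 without WT well 3. Then 1 gene, rather than 9, was lower.

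Sparc, a matrix glycoprotein, was 1 of 2 members with wells apart, at 36.2, 46.6 and 107 CPM against 35.5, 30.9 and 35.2 CPM. It went from -1.02 to -0.29 without WT well 3. The other was Thbs1, thrombospondin 1, at 19.9, 22.2 and 41.6 CPM against 13.0, 11.0 and 14.2 CPM and a ratio of -1.22 (-1.62 to -0.82), or -0.73 without WT well 3. Of all cells thinned to 300 UMIs, 2.32% of WT and 1.66% of dTE cells had at least 2 stromal UMIs, with 1.15%, 1.38% and 3.77% in the 3 WT wells. Leaving out such cells (counted before thinning) brought the genes called lower from 273 to 168 and those called higher from 179 to 196. Of the 189 genes called lower that could then still be compared, 149 kept the call, and of the 168 higher genes 152 did. Without the stromal and the myeloid cells, added after the data were seen, 188 were higher and 161 lower. The part that stromal RNA has in other results was not tested beyond this.

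**Figure D4:**
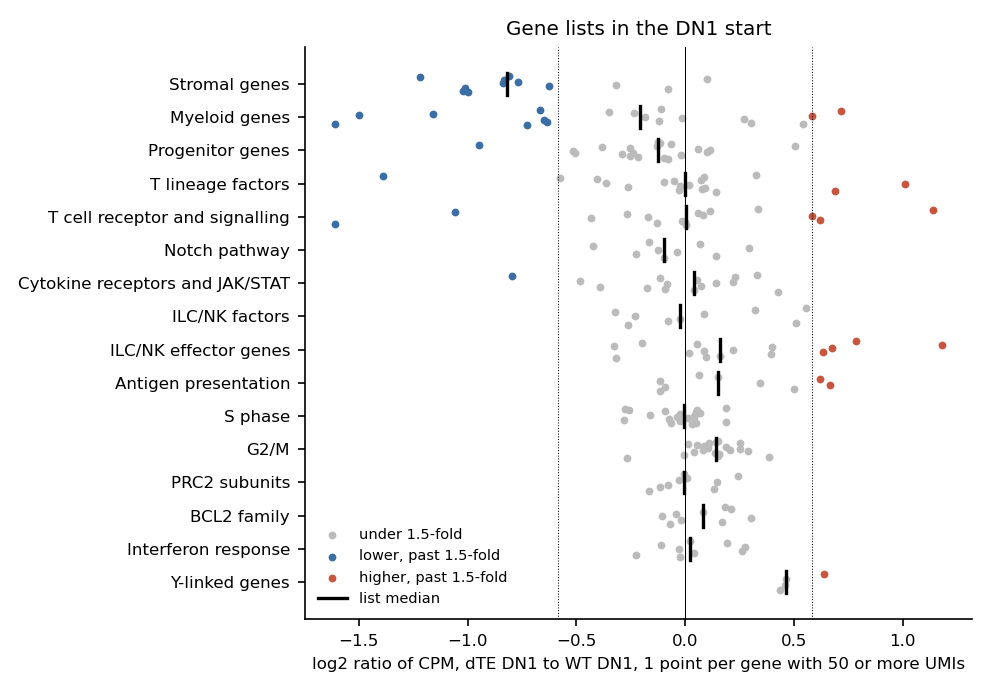
Log2 ratio of CPM, dTE DN1 to WT DN1, for each member with at least 50 UMIs of 16 gene lists, with black bars at the list medians and dotted lines at 1.5-fold. Stromal genes have the lowest median (-0.82) and Y-linked genes the highest (0.46), while the T-lineage factors and the T-cell receptor lists hold called genes on both sides of a median near 0.

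Notch and cytokine receptor genes held 1 called gene, near the share over all genes (1.76% higher and 2.69% lower). Of 10 Notch receptors and targets, 9 could be compared and none was called, with a median of -0.10. Notch1, the receptor that DL1 engages, had 192, 191 and 209 CPM in the WT wells and 166, 177 and 168 CPM in the dTE wells, a ratio of -0.23 (-0.35 to -0.10), and Maml2, a coactivator of Notch, was at 0.29 (0.14 to 0.45). Of 17 genes of the common gamma chain receptors and their kinases, 15 could be compared. Cish, a feedback inhibitor induced by STAT5, was lower, with wells of 25.1, 39.4 and 43.6 CPM in WT and 17.97, 23.6 and 23.3 CPM in dTE and a ratio of -0.79 (-1.12 to -0.47). Its WT wells were spread but all above the dTE wells, and the ratio was -0.52 in cells with at most 20% mitochondrial UMIs. Il7r, the receptor for IL-7 and named after its value was seen, was at 0.43 (0.24 to 0.62), Jak1, a kinase of these receptors, at 0.22 (0.13 to 0.31) and Stat3 at 0.04 (-0.06 to 0.14).

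Housekeeping and cycle programs held no called gene. With 1.76% of all genes called higher and 2.69% lower, 0 of 20 or 0 of 22 is close to that share. None of 20 replication genes of S phase passed 1.5-fold, and their median was -0.0041. None of 22 mitotic genes did either, but 20 of the 22 were above 0, with a median of 0.14. Top2a, the mitotic topoisomerase, had 674, 681 and 724 CPM in the WT wells and 760, 798 and 774 CPM in the dTE wells, and Mki67, a marker of cycling cells, had overlapping wells at 0.09 (0.02 to 0.16). Ribosomal protein genes had 75 of 78 above 0, none called and a median of 0.10. The wells of their sum overlapped, at 14870, 16000 and 17540 CPM in WT and 17950, 16980 and 18120 CPM in dTE. The median was 0.04 in cells with at most 20% mitochondrial UMIs.

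Polycomb repressive complex 2 genes (9 compared, median -0.005), Bcl2 family genes (9, median 0.08), interferon-response genes (9, median 0.02) and mitochondrially encoded genes (15, median -0.01) had no called member. For lists this short that is near the share over all genes, 1.76% higher and 2.69% lower. Ezh2, the methyltransferase of Polycomb repressive complex 2, was at -0.08 (-0.17 to 0.01). Bcl2, the survival factor, was at 0.21 (0.16 to 0.26), with wells of 946, 918 and 920 CPM against 1095, 1107 and 1002 CPM. Pde4d, a cyclic AMP phosphodiesterase, was at 0.12 (0.08 to 0.15). Camk1d, a calcium-dependent kinase, was measured at 620, 998 and 1605 CPM in WT wells and 1983, 1157 and 986 CPM in dTE wells. These wells overlapped, and the summed ratio of 0.31 (0.27 to 0.36) has a counting interval far narrower than the spread between wells. It was 0.80 without WT well 3 and -0.09 without dTE well 1.

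The 15 highest ratios among named genes with wells apart were led by Olfm3, Ly6d and Cxcr5. Cxcr5, the receptor for the chemokine CXCL13, had 5.26, 12.8 and 11.7 CPM in the WT wells and 33.7, 44.5 and 43.2 CPM in the dTE wells. The lowest dTE well was above every WT well by over 20 CPM, and with 61 and 236 UMIs the ratio was 1.98 (1.56 to 2.41), or 3.93-fold. Olfm3, a secreted olfactomedin, had 13 and 55 UMIs and a ratio of 2.10 (1.21 to 3.10). Ly6d, a surface protein of the Ly6 family found on lymphoid progenitors, had 10 and 40 UMIs and a ratio of 2.02 (1.00 to 3.19). Tnfrsf9, the costimulatory receptor 4-1BB, had 16 and 53 UMIs and a ratio of 1.75 (0.92 to 2.66).

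Col15a1, a collagen, was at 1.48 (1.06 to 1.91), with 7.01, 13.9 and 11.7 CPM in WT wells and 29.6, 33.02 and 29.5 CPM in dTE wells. Itgae, the integrin chain CD103 of tissue lymphocytes, had 13.4, 12.8 and 10.5 CPM against 31.0, 29.9 and 24.4 CPM, a ratio of 1.25 (0.85 to 1.67). Papss2, an enzyme of sulfate activation, was at 1.29 (0.76 to 1.86), and Colq, the tail subunit of acetylcholinesterase, at 1.22 (0.74 to 1.72). Adamtsl3, Polm, Rassf8, Zfp518b and Ticam1, also of the 15, had ratios from 1.13 to 1.39 from 15 to 37 UMIs in WT and 37 to 82 in dTE. Rassf8 was at 2.14 without WT well 3. Polm (0.13) and Ticam1 (0.41) were under the limit in cells with at most 20% mitochondrial UMIs.

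Among the 15 lowest, Mid1, a microtubule-bound ubiquitin ligase, was farthest from 0. Its WT wells had 687, 1925 and 327 CPM and its dTE wells 76.8, 84.4 and 89.2 CPM. The WT wells differed from each other by several fold, and the lowest of them was still above all dTE wells. From 5453 and 489 UMIs the ratio was -3.46 (-3.59 to -3.32), with a Mid1 UMI in 29.0% of WT and 4.38% of dTE cells. At 300 UMIs per cell the shares were 20.3% and 2.51%, against 16.2% and 12.6% of cells with stromal UMIs. In the mouse Mid1 crosses the boundary of the pseudoautosomal region, a repeat-rich stretch shared by X and Y, so its counts are uncertain. Over the alternatives the ratio ran from -3.99 to -2.51, the latter without WT well 2.

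Olfm5 and Olfr643, next to each other on chromosome 7, were lower together, at -1.50 (-1.80 to -1.20) and -1.46 (-2.07 to -0.88). Olfm5 had 66.1, 65.5 and 54.9 CPM in WT wells and 24.7, 21.0 and 18.8 CPM in dTE wells. Abca13, a lipid transporter of granulocyte precursors, and Clec4n, the myeloid lectin dectin-2, were at -1.70 (-2.42 to -1.02) and -1.71 (-2.78 to -0.75). Tmem132a, Efemp2, Pla2g7, Stoml1 and Tomm6 had ratios from -2.36 to -1.50 from 41 to 49 UMIs in WT and 9 to 17 in dTE. Tomm6 was at -0.75 without WT well 3, and Pla2g7 at -2.27 without dTE well 3. Of these genes Efemp2, a protein of elastic fibres, was at 0.08 with no mitochondrial limit on cells.

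The DN2a and DN2b starts, each with its own pair of libraries, are set beside the DN1 start here. They share no library with it, though the labels do not say whether they share mice. In the DN2a pair the median mitochondrial share was 13.3% in WT and 20.9% in dTE, at medians of 386 and 452 UMIs. The mitochondrial limit removed 2.59% and 26.8% of barcodes there, and 40.9% and 56.6% in the DN2b pair. What part these unlike libraries have in the differences between starts was not tested. Among all genes, 1.69% were called higher and 8.94% lower in the DN2a start, and 3.9% and 5.44% in the DN2b start. The median ratio over all genes was -0.14 in the DN2a start and -0.02 in the DN2b start, and the DN2a median was 0.01 under TMM scaling. With that scaling, 2.74% of genes were called higher and 5.68% lower in the DN2a start. Of the 124 genes higher with wells apart in the DN1 start, 122 could be compared in the DN2a start and 48 (39.3%) were called higher there, and 64 could be compared in the DN2b start and 36 (56.2%) were called higher. Of the 132 lower genes, 64 of 111 (57.7%) were called lower in the DN2a start and 30 of 48 (62.5%) in the DN2b start. Under TMM scaling the DN2a counts were 56 of 122 and 47 of 111. In all 3 starts, 31 of 64 higher and 27 of 48 lower genes were called the same way, among them Bcl11b, Mid1, Olfm5, Olfr643, Cxcr5, Themis, Lef1, Itgae, Fcer1g and Gzma.

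Bcl11b had its lowest ratio in the DN1 start. It was -1.39 there, -1.06 (-1.14 to -0.98) in the DN2a start and -0.67 (-0.78 to -0.56) in the DN2b start. Its DN1 ratio was below that of the DN2a start by 0.33 (difference -0.33, counting interval -0.50 to -0.17) and below that of the DN2b start by more (difference -0.73, -0.91 to -0.55). Cd3g had the same order, at -1.61, -1.20 and -0.27, with differences of -0.41 (-0.69 to -0.12) and -1.34 (-1.63 to -1.05). These intervals cover counting error in 4 libraries and no variation between cultures. DN2a cells had been sorted as Bcl11b-negative and DN2b cells as Bcl11b-positive, while Bcl11b was not part of the DN1 gate. What part this sorting has in the order of the ratios was not tested.

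Several ILC and NK genes had smaller ratios in the DN1 start than in the others, and some had larger ones. Of the 15 effector genes counted often enough in both starts, 11 had a smaller ratio in the DN1 than in the DN2a start and 4 a larger one, and of the 9 factors 7 and 2. Against the DN2b start the counts were 12 and 1 of 13 effector genes and 7 and 1 of 8 factors, and all these counts were alike under TMM scaling. Over all genes the median ratio was -0.0016, -0.14 and -0.016 in the DN1, DN2a and DN2b starts. The same counts over all genes are not given here, so these are not read as particular to the 2 lists. Zbtb16 was at 0.56, 1.02 (0.94 to 1.10) and 1.07 (0.91 to 1.24) in the DN1, DN2a and DN2b starts, differences of -0.46 (-0.58 to -0.34) and -0.52 (-0.70 to -0.33). Fcer1g was at 0.78, 1.24 and 2.15, and Id2 at 0.51, 0.76 and 1.65. Gzma was at 0.63, 0.70 and 0.84. For Id2 and Gzma the difference between the DN1 and DN2a starts turned on the scaling. It was -0.25 (-0.60 to 0.09) for Id2 and -0.06 (-0.14 to 0.01) for Gzma in CPM, and -0.40 (-0.74 to -0.05) and -0.21 (-0.28 to -0.13) under TMM scaling. For the larger ratios, Ccl5 was at 1.18, 0.38 and -1.20, the last from 22 and 6 UMIs, and Itga1, an integrin chain, at -0.20, -0.85 and -0.92. Il2rb, absent in WT DN1, had 21 and 71 UMIs in the DN2a and 16 and 102 in the DN2b start.

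Themis was at 1.14, 1.22 and 0.775 in the 3 starts and Lef1 at 1.01, 1.08 and 1.11, with differences within counting error. Cxcr5 was at 1.98, 1.91 and 2.89, and its DN1 ratio was below that of the DN2b start (difference -0.92, -1.67 to -0.16). Gata3 was at 0.69, 0.51 and 0.39, under the 1.5-fold limit in the DN2 starts, though at 0.66 in the DN2a start under TMM scaling. Mef2c was lower by less in the DN1 start, at -0.25 against -1.34 and -1.23, a difference of 1.08 (0.57 to 1.59) from the DN2a start. Camk1d was at 0.31, 0.87 and -1.47. Mpo was at -0.72 and, in the DN2a start, -0.39 from 263 and 140 UMIs. S100a8 and Elane had at most 1 UMI per library in the DN2 starts and could not be compared there.

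**Figure D5:**
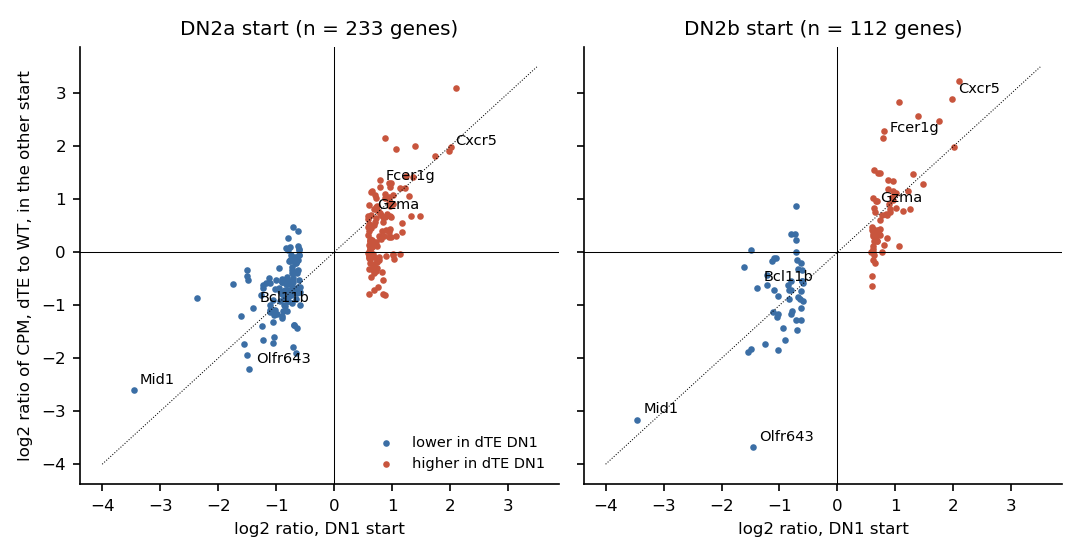
Genes called with wells apart in the DN1 start, by their log2 ratio of CPM (dTE to WT) in the DN1 start and in the DN2a start (left, 233 genes) or the DN2b start (right, 112 genes), for genes with at least 50 UMIs there, with a dotted line where both ratios are equal. Lower genes (blue) had median ratios of -0.68 and -0.71 in the other starts and higher genes (red) 0.35 and 0.74, and some points lie on the other side of 0.

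Sex-linked counts also differed between the 2 pools. All 4 listed Y-linked genes had ratios above 0, with a median of 0.46. The other Y-linked gene that could be compared, Gm21865, of a multicopy family whose counts are uncertain, went the other way from 65 to 4 UMIs (-4.0, -5.92 to -2.57), with overlapping wells. Eif2s3y, a translation factor subunit, was called higher with 19.9, 27.7 and 32.7 CPM in the WT wells and 43.1, 38.8 and 47.2 CPM in the dTE wells. Uty, a demethylase, was at 0.46 (0.26 to 0.66) and Ddx3y, an RNA helicase, at 0.47 (0.21 to 0.72), with wells apart. Eif2s3y was under the limit without WT well 1 (0.49) or dTE well 3 (0.58), and at 0.25 in cells with at most 20% mitochondrial UMIs. Gm27733 and Gm26992 overlap Xist, the RNA of the inactive X chromosome, and were lower, from 205 to 69 UMIs and from 104 to 43, ratios of -1.55 (-1.96 to -1.15) and -1.25 (-1.80 to -0.73), with wells apart. They were named after their values were seen, and Xist itself was not analysed here. What part the mix of males and females in the pools has in other genes was not tested.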

How the data were processed

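Libraries were made by the authors by sci-RNA-seq3, and UMI counts per gene and barcode were deposited per library. The genome build in the submitters' processing notes is mm9, and the aligner and counter are not given in the sources used here. Cells were filtered at 200 genes (minimum), 2000 UMIs and 30% mitochondrial UMIs (maxima). Doublets were limited by the UMI cap alone, and no doublet caller was run. Intervals cover counting error only, since wells are technical and no culture was repeated. The deposited counts were summed per library and per reverse-transcription well and scaled to CPM over the 13599 genes with a UMI in at least 15 kept cells of the 6 libraries. Genes with at least 50 UMIs over both libraries were compared. Log2 ratios have exact conditional (Clopper-Pearson) intervals, levels exact Poisson intervals and shares of cells exact binomial intervals. No test was run, since each genotype had 1 library.

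Named genes are those the study names for this experiment, the 15 highest and 15 lowest ratios among called genes with wells apart (accession-like symbols left out), and, of each of 22 gene lists, called members with wells apart and the 3 members with most UMIs. The comparison, lists and rules were chosen with earlier results of these data known, and genes beyond the rule were picked after their values were seen. Some genes that these rules name are not reported here. Positions are from GENCODE on GRCm38, by Ensembl identifier (27924 of 28048 genes matched). Alternatives changed the cell filters, scaling, fold, UMI minimum and wells, and cells with stromal or myeloid UMIs were left out. Scripts were tested on simulated data. Tools were Python 3.11.15, numpy 2.4.6, scipy 1.17.1, pandas 2.3.3, matplotlib 3.10.9 and, for TMM scaling, R 4.3.3 with edgeR 4.0.16.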

Additional observations from a re-analysis of the deposited data

Results flagged for a closer look

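For 7 genes called with wells apart in the DN1 start, the ratio was past 1.5-fold in the opposite direction in another start. The difference itself was not tested, and the names were chosen by their values. In the DN2a start the log2 ratios were -0.794 for Kif3a (0.60 in the DN1 start), -0.652 for Setmar (0.76), -0.804 for Tsga10 (0.87), -0.783 for Gm23202 (0.85) and -0.718 for Bnip3 (0.69). In the DN2b start they were -0.633 for Chac2 (0.59 in the DN1 start) and 0.88 for Hivep3 (-0.71). In the DN1 start these genes had 24 to 56 UMIs in WT and 24 to 83 in dTE. In the other start the wells lay apart for Kif3a, Gm23202 and Hivep3 and overlapped for the other 4. Counting intervals held 0 in at least 1 of the 2 starts for Kif3a, Setmar, Bnip3, Chac2 and Hivep3. Of the higher genes, 5 of 122 were called lower in the DN2a start, where 8.94% of all genes were. In the DN2b start these were 1 of 64 against 5.44%, and 1 of 48 lower genes was called higher, against 3.9%. None of these counts was above the share over all genes.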

How the results depend on the processing

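No paired analysis was possible because each genotype had 1 library with replicate number 1. Bcl11b kept its direction and its side of 1.5-fold under all 17 alternatives that apply to it. Counts of called genes moved with the rule. They were 1019 higher and 1152 lower at 1.2-fold (476 and 465 with wells apart), 26 and 68 at 2-fold (23 and 41), 50 and 50 with a minimum of 200 UMIs (42 and 32), and 972 and 1207 with no minimum (276 and 340). Leaving out 1 well at a time gave 150 to 260 higher and 158 to 324 lower genes, and 130 to 224 and 133 to 207 with wells apart. The lowest count of lower genes and both highest counts of higher genes were without WT well 3, and the 207 lower genes with wells apart were without WT well 1, where 2 wells face 3. With at most 20% mitochondrial UMIs 174 genes were lower, without stromal cells 168, and without stromal and myeloid cells 161. Zbtb16 was at 0.67 with no mitochondrial limit. Without that limit Bgn (0.10), Cxcl12 (0.17), Efemp2 (0.0796) and Sparc (0.0139) changed sign. Bgn ran from -1.03 to 0.0585 when 1 well was left out, the latter without WT well 3. Cxcl12, at -0.81 over all wells, ran from -1.02 to -0.112. The cause of these changes was not tested. At these depths, genes under 200 UMIs have wide counting intervals, and variation between cultures is unknown.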

Other observations

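A few genes were high in 1 well of a library. Among genes with at least 100 UMIs in a library, those with 1 well at least 3-fold above the next were counted: 10 of 7663 in WT DN1, all in well 3, and 1 of 7633 in dTE DN1. The WT genes were Bicc1, Kitl, Ogn, Col5a2, Meis2, Dclk1, Cald1, Sned1, Ebf1 and Nyap2. Nyap2 had 0, 1.66 and 103 CPM in the WT wells, from 258 UMIs in 249 cells, and 5 UMIs in dTE DN1. In dTE DN1 the gene was Sergef, with 597, 58.2 and 60.8 CPM from 1546 UMIs in 1119 cells, against 67.8, 49.4 and 48.4 CPM in the WT wells.

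Of the 255 called genes with wells apart and a position on GRCm38, 56 lay within 500 kb of another, in 37 pairs. Both members went the same way in 17 pairs and opposite ways in 20. Cd3g and Cd3d were both lower, while Cxcr5, 408 kb from Cd3g, was higher. Fcer1g, Fcgr3 and Usp21 on chromosome 1 were all higher, as were Gimap5 (0.84) and Gimap6 (0.69), guanosine triphosphatases of lymphocytes, and Btaf1 (0.73) and Ide (0.89). Ly6d (2.02) and Ly6c2 (-1.39), of 1 gene family, went opposite ways. Short or overlapping genes may share reads.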
